A study of Mus musculus with 9 samples.

Results

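A group of 9 genes that encode proteins of central myelin, Mbp, Mog, Mag, Mobp, Cnp, Cldn11, Opalin, Ermn and Mal, were followed through translating ribosome affinity purification (TRAP), in which mRNAs are recovered with GFP-tagged ribosomes. They were taken by gene symbol, and all 9 members were found among the 22092 genes of the count tables. The study asked which mRNAs are bound to astrocyte ribosomes at the vessel surface, with 3 libraries of whole astrocyte TRAP set against 6 of endfeet TRAP. All mice were of the strain Aldh1L1 JD130, carried tg:Aldh1L1-L10aGFP and were 2 months old, so that both groups shared the transgene, whose Aldh1l1 promoter drives a GFP-tagged ribosomal protein L10a in astrocytes. Polysome mRNAs of the whole astrocyte group came from brain, with 1 brain for each library and the choroid plexus taken out beforehand. Those of the endfeet group came from purified brain vessels, which keep the astrocyte endfeet attached, and the vessels of 8 mice were pooled for each library.

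Myelin is the stack of glial membrane that insulates axons, and in the brain it is made by oligodendrocytes, not by astrocytes. MBP holds the layers of compact myelin together, whereas CNP keeps cytoplasmic channels open between them, and MAG and MOG lie at the innermost and outermost surfaces of the sheath. Some of these mRNAs, Mbp above all, are carried to the ends of oligodendrocyte processes and translated there. Myelin genes are also used as markers of oligodendrocyte RNA in preparations of other brain cells. MAL and CLDN11 are not confined to myelin, since MAL sorts membrane proteins in polarized epithelia and CLDN11 forms tight junctions in other barriers, the arachnoid among them.

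The stretches upstream of Cnp and Mal are printed because these were the 2 members whose ribosome-bound mRNA differed between the groups, in opposite directions. They are RefSeq promoter sequences (build GRCm38.p6), cut to the bases before the first annotated exon. RefSeq windows were matched for 8 of the 9 members, Mbp being the missing entry. Capitals mark matches on either strand to CTGGCAC (the core bound by the myelin regulator MYRF), ACAAAG (a SOX core) and CANNTG (the E-box of OLIG and other basic helix-loop-helix factors), which do not overlap each other here. The Cnp stretch is chr11:100574689-100574903 on the plus strand (215 bases) and the Mal stretch is chr2:127656696-127656945 on the minus strand (250 bases).
Cnp: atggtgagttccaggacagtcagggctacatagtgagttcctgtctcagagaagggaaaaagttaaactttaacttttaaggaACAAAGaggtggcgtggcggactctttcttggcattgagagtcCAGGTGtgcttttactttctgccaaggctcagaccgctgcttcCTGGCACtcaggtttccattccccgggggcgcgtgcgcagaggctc
Mal: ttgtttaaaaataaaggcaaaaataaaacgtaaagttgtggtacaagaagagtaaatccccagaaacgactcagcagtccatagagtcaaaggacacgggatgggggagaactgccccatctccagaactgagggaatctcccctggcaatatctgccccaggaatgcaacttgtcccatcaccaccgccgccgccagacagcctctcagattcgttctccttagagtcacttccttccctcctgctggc
The Cnp stretch held 1 match to each of the 3 motifs, and the Mal stretch held none. Over 27025 RefSeq promoters cut to 215 bases, 3.54% held CTGGCAC, 14.5% held ACAAAG and 61.3% held CANNTG, and at 250 bases the shares were 4.14%, 16.5% and 66.0%. In the 250 RefSeq bases before the start of the 8 matched members, not cut at annotated exons, CTGGCAC was found in 2 (Mag and Cnp), ACAAAG in 4 (Mag, Mobp, Cnp and Opalin) and CANNTG in 3. These matches describe letters in the windows and do not show a bound site.

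Values are given as CPM, the counts of 1 transcript of a gene (that with the largest sum of CPM over the libraries) in each 1000000 counts over all genes. Library totals were 35984144 to 43521208 counts in whole astrocyte TRAP and 2319495 to 13450588 in endfeet TRAP, with endfeet library 6 the smallest. A count of 0 therefore allows up to 0.0689 to 0.0834 CPM (3 counts) in whole astrocyte libraries and up to 0.223 to 1.29 CPM in endfeet libraries, for counting error only. Endfeet libraries also differed far more from each other than whole astrocyte libraries did, with common dispersions of 0.705 and 0.0140. The main test below shares a single estimate of spread for each gene between both groups, so it does not allow for this difference. The labels do not say whether the samples of a group were prepared separately beyond the pools above. The running numbers of the libraries place endfeet libraries 4 to 6 in a series with the whole astrocyte libraries (below, the shared series) and endfeet libraries 1 to 3 in another, and what the series stand for is not stated in the sources used here.

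The ribosome-bound myelin mRNAs differed in direction between the groups. Of the 9 genes, Cnp fell in endfeet TRAP, Mal rose, and 7 did not pass the test (edgeR's quasi-likelihood test over 14427 genes, Benjamini-Hochberg adjusted p at most 0.05). Over all genes tested, 34.6% passed, 20.7% higher and 13.9% lower in endfeet TRAP, so 1 member in each direction is no more than the background. The median log2 fold change (endfeet over whole astrocyte) was -0.65 for the 9 members and 0.10 for all genes tested. All 6 endfeet libraries lay below all 3 whole astrocyte libraries for 3 members (Mag, Cnp and Opalin), a pattern found in 25.7% of genes tested, and above them for 1 (Mal), found in 17.7%. In these bulk samples, fewer cells of a type and less RNA per cell cannot be told apart.

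**Figure D1:**
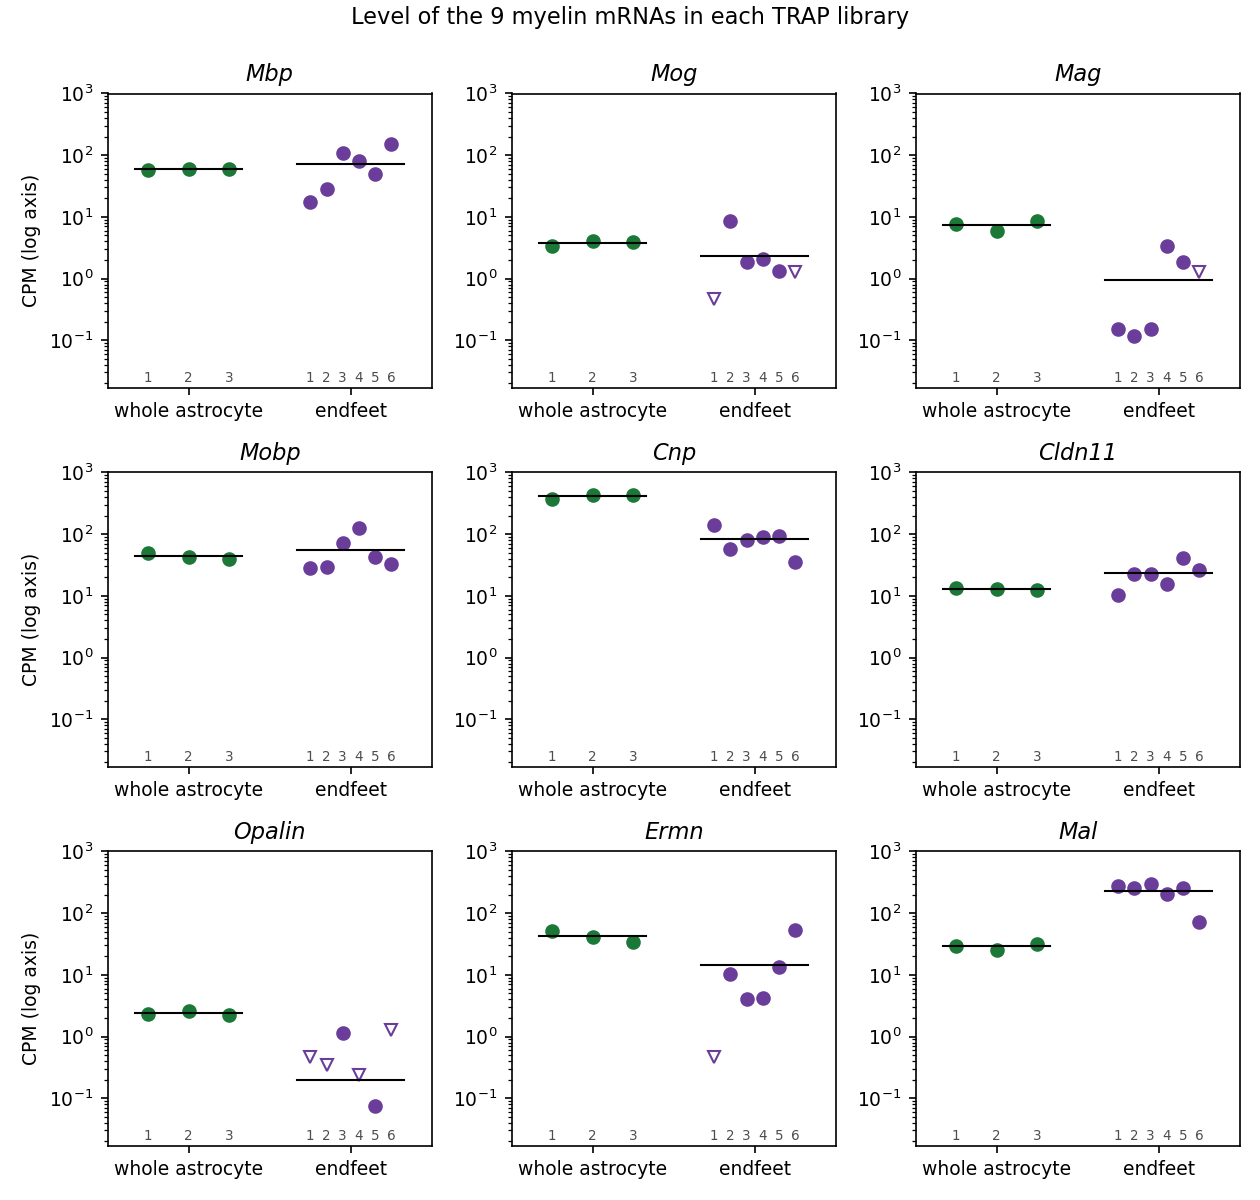
CPM (log axis) of each of the 9 myelin mRNAs in the 3 whole astrocyte TRAP libraries (green) and the 6 endfeet TRAP libraries (purple), with library numbers along the bottom and the group mean as a line. Open triangles are libraries with a count of 0, drawn at the level that 3 counts would give. Whole astrocyte libraries lie within 1.49-fold of each other for every gene, whereas endfeet libraries spread widely, and Cnp (34.9 to 141 CPM) and Mal (71.1 to 295 CPM) are the genes whose groups lie apart with many counts in every library.

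Cnp, which encodes the cyclic nucleotide phosphodiesterase of non-compact myelin, had the highest level per kilobase of the 9 mRNAs in whole astrocyte TRAP. The gene spans chr11:100574904-100591729 on the plus strand. It was at 377, 438 and 430.3 CPM in whole astrocyte TRAP, and at a lowest of 34.9, a median of 85.9 and a highest of 141 CPM in endfeet TRAP. Every endfeet library was below every whole astrocyte library, with library 6 the lowest and library 1 the highest. The means were 415 ± 33.5 (SD, n = 3) and 83.0 ± 36.0 CPM (SD, n = 6), a 5.0-fold difference, and the log2 fold change was -2.19 (SE 0.37, edgeR adjusted p = 0.000596). With only the endfeet libraries of the shared series it was -2.55 (edgeR adjusted p = 0.00175). The transcript used, Cnp-204, is annotated as a processed transcript, but nearly all its reads were also counted on the coding Cnp-201, whose log2 fold change in a fit by transcript was -2.09 (edgeR adjusted p = 0.00121). Cnp-202 lies partly over Dnajc7 on the opposite strand, by 154 bases, and was not used for the gene.

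Mal, which encodes a small membrane proteolipid of compact myelin and of epithelia, changed in the opposite direction. The gene spans chr2:127633226-127656695 on the minus strand. It was at 29.3, 25.6 and 31.7 CPM in whole astrocyte TRAP, and at a lowest of 71.1, a median of 254 and a highest of 295 CPM in endfeet TRAP. Every endfeet library was above every whole astrocyte library, and library 6 was well below the other 5. The means were 28.9 ± 3.08 (SD, n = 3) and 226 ± 81.9 CPM (SD, n = 6), a 7.83-fold difference, and the log2 fold change was 3.06 (SE 0.43, edgeR adjusted p = 0.000144). Within the shared series it was 2.56 (edgeR adjusted p = 0.00408). Both annotated transcripts rose, Mal-202 with a log2 fold change of 3.17 (edgeR adjusted p = 0.00016) and the shorter Mal-201 with 3.76 (edgeR adjusted p = 0.00515).

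Markers of other cells that could hold Mal were also higher in endfeet TRAP, where 20.7% of all genes tested rose. The 8 choroid plexus genes summed to 72.7, 1609 and 1316 CPM in whole astrocyte TRAP and to 6850.4 (lowest), 23942 (median) and 74239.7 CPM (highest) in endfeet TRAP, and 7 of them rose. Endfeet library 1, with the highest choroid plexus sum, had Mal at 278 CPM, library 5, with the lowest, had it at 256 CPM, and library 6, with 17662 CPM, had it at 71.1 CPM. The 8 ependymal genes, of which 4 rose, summed to 48.0 to 66.1 CPM in whole astrocyte TRAP and to 154 to 231 CPM in endfeet TRAP. Over the 6 endfeet libraries, Mal had a Pearson correlation of 0.26 (Spearman 0.37) with the choroid plexus sum, 0.78 (Spearman 1.0) with the ependymal sum, 0.74 (Spearman 0.77) with the sum of arachnoid and fibroblast genes and 0.85 (Spearman 0.49) with the total counts of the library. With 2 oligodendrocyte lists taken up below, Mal had 0.89 (Spearman 0.60) for other myelin genes and 0.80 (Spearman 0.94) for transcription factors. All these values describe 6 libraries that share the scaling of CPM. Library 6 was the lowest for Mal, for the ependymal sum, for both oligodendrocyte sums and for total counts. The part of these cells in the Mal difference was not tested.

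Mag and Mog, both adhesion proteins of the immunoglobulin superfamily at the sheath surfaces, had few counts in endfeet TRAP. Mag (chr7:30899183-30914327, minus strand) was at 7.78, 5.85 and 8.48 CPM in whole astrocyte TRAP and at 0 (lowest), 0.152 (median) and 3.39 CPM (highest) in endfeet TRAP. All 6 endfeet libraries were below the whole astrocyte libraries, and 4 of them had fewer than 10 counts. Mag had a log2 fold change of -2.80 (SE 1.16, edgeR adjusted p = 0.0788), and without endfeet library 4, the highest, it was -3.92 (edgeR adjusted p = 0.0191). That library is singled out by its value, and leaving out any other single library gave edgeR adjusted p of 0.0713 to 0.201. Within the shared series Mag was at -2.01 (edgeR adjusted p = 0.144). Mog (chr17:37010743-37023398, minus strand) was at 3.36, 4.05 and 3.93 CPM in whole astrocyte TRAP and at 0, 1.61 and 8.55 CPM (lowest, median and highest) in endfeet TRAP. Library 2 alone was above the whole astrocyte libraries, the other 5 were below, and libraries 1 and 6 had a count of 0. The log2 fold change of Mog was -0.65 (SE 1.23, edgeR adjusted p = 0.714), a difference within the spread of the endfeet libraries, and without endfeet library 2 it was -1.69 (edgeR adjusted p = 0.286). Within the shared series, which lacks library 2, Mog was at -1.65 (edgeR adjusted p = 0.196).

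Opalin and Ermn mark maturing and mature oligodendrocytes, Opalin as a transmembrane glycoprotein of their processes and Ermn as a cytoskeletal protein. Opalin (chr19:41062473-41077113, minus strand) had the lowest level per kilobase in both groups, and was at 2.33, 2.61 and 2.25 CPM in whole astrocyte TRAP and at 0, 0 and 1.13 CPM (lowest, median and highest) in endfeet TRAP. It had a count of 0 in 4 endfeet libraries, 1 count in library 5 and 15 counts in library 3. All endfeet libraries were below the whole astrocyte libraries, although a count of 0 in library 6 allows up to 1.29 CPM. Opalin had a log2 fold change of -3.41 (SE 1.30, edgeR adjusted p = 0.0578), and without endfeet library 3, the highest, it was -6.34 (edgeR adjusted p = 0.00192). That library is singled out by its value, and leaving out any other single library gave edgeR adjusted p of 0.0617 to 0.158. Within the shared series Opalin was at -6.00 (edgeR adjusted p = 0.00435). Both -6.34 and -6.00 rest on the 1 endfeet count of library 5, so they lie at the floor. Ermn (chr2:58045113-58052864, minus strand) was at 51.4, 41.3 and 34.4 CPM in whole astrocyte TRAP and at 0, 7.27 and 53.0 CPM (lowest, median and highest) in endfeet TRAP. Library 6 was above the whole astrocyte libraries and the other 5 were below, with no count at all in library 1. For Ermn, the log2 fold change was -1.51 (SE 1.05, edgeR adjusted p = 0.284), and without endfeet library 6, the highest, it was -2.67 (edgeR adjusted p = 0.0349). That library too is singled out by its value, and leaving out any other single library gave edgeR adjusted p of 0.173 to 0.507. Within the shared series Ermn was at -0.89 (edgeR adjusted p = 0.427). Ermn lies over the antisense gene Galnt5 by 237 bases, but Galnt5 had at most 48 counts in any library.

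Mbp, Mobp and Cldn11 did not pass the test, with log2 fold changes above 0, that of Mobp only for the transcript used (below). Mbp was at 58.3, 59.2 and 59.1 CPM in whole astrocyte TRAP and at 17.7, 65.4 and 149 CPM (lowest, median and highest) in endfeet TRAP. Of the endfeet libraries, 3 (3, 4 and 6) were above and 3 (1, 2 and 5) below the whole astrocyte libraries, which were within a factor of 1.02 of each other. For Mbp, the log2 fold change was 0.35 (SE 0.55, edgeR adjusted p = 0.653), and without endfeet library 6 it turned to -0.03 (edgeR adjusted p = 0.968). Cldn11 (chr3:31149920-31164324, plus strand), the tight junction protein of the radial component of myelin, was at 13.2, 13.1 and 12.6 CPM in whole astrocyte TRAP and at 10.3, 22.6 and 41.3 CPM (lowest, median and highest) in endfeet TRAP. In endfeet TRAP, 5 libraries were above the whole astrocyte libraries and library 1 was below them. The log2 fold change of Cldn11 was 0.90 (SE 0.54, edgeR adjusted p = 0.214). The 12 genes of arachnoid cells and fibroblasts, of which 11 rose (20.7% of all genes tested did), summed to 822 to 1541 CPM in whole astrocyte TRAP. In endfeet TRAP they summed to 5562 to 16885 CPM, and library 1, the lowest for Cldn11, had the highest sum. Over the 6 endfeet libraries, which share the scaling of CPM, Cldn11 had a Pearson correlation of -0.12 (Spearman -0.09) with this sum. Among all list sums, its highest was 0.84 (Spearman 0.83, microglia and macrophages) and its lowest -0.74 (Spearman -0.60, choroid plexus). For Mbp, the highest was 0.95 (Spearman 0.94, neurons) and the lowest -0.74 (Spearman -0.60, arachnoid cells and fibroblasts). The part of any of these cells in the Cldn11 or Mbp level was not tested.

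For Mobp, which encodes a small basic protein of compact myelin, the reading depended on the transcript. The gene spans chr9:120149707-120181484 on the plus strand. Mobp-204, annotated as a target of nonsense-mediated decay, had the largest sum of CPM over the libraries and stands for the gene here. The coding Mobp-202, however, had more raw counts in all. Mobp-204 had the higher mean in endfeet TRAP (54.7 against 25.9 CPM) and Mobp-202 in whole astrocyte TRAP (68.8 against 43.8 CPM). The sum runs over more endfeet than whole astrocyte libraries, so the choice of Mobp-204 leans on endfeet TRAP. Its direction is therefore not independent of that choice. Mobp-204 was at 50.4, 42.1 and 38.9 CPM in whole astrocyte TRAP and at 27.9, 37.5 and 125 CPM (lowest, median and highest) in endfeet TRAP, with a log2 fold change of 0.39 (SE 0.49, edgeR adjusted p = 0.574). Without endfeet library 4, the highest, the value turned to -0.18 (edgeR adjusted p = 0.746). Mobp-202 was at 79.2, 66.7 and 60.4 CPM in whole astrocyte TRAP and at 0, 14.5 and 104 CPM (lowest, median and highest) in endfeet TRAP. With Mobp-202 in its place the log2 fold change was -1.34 (edgeR adjusted p = 0.344), a choice made after its values were seen.

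Mobp-204 had 0.636, 0.632 and 0.643 counts for each count of Mobp-202 in whole astrocyte TRAP. In endfeet libraries 2 to 6 the ratio was 4.32, 5.33, 8.03, 2.72 and 0.315, and library 1 had 182 counts of Mobp-204 and none of Mobp-202. The ratio was thus higher than in any whole astrocyte library in 5 endfeet libraries and lower in library 6. The difference did not pass an exact permutation test (two-sided, over the 84 splits, p = 0.119, Benjamini-Hochberg adjusted 0.833 over 7 transcript ratios, taken up after their values were seen). Of the 2609 bases of Mobp-204, 2039 lie outside the other Mobp transcripts, near the end of the gene (within chr9:120179327-120181484), and 79 bases of it overlap the gene Gm38642 on the same strand, so that reads there cannot be told apart.

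**Figure D2:**
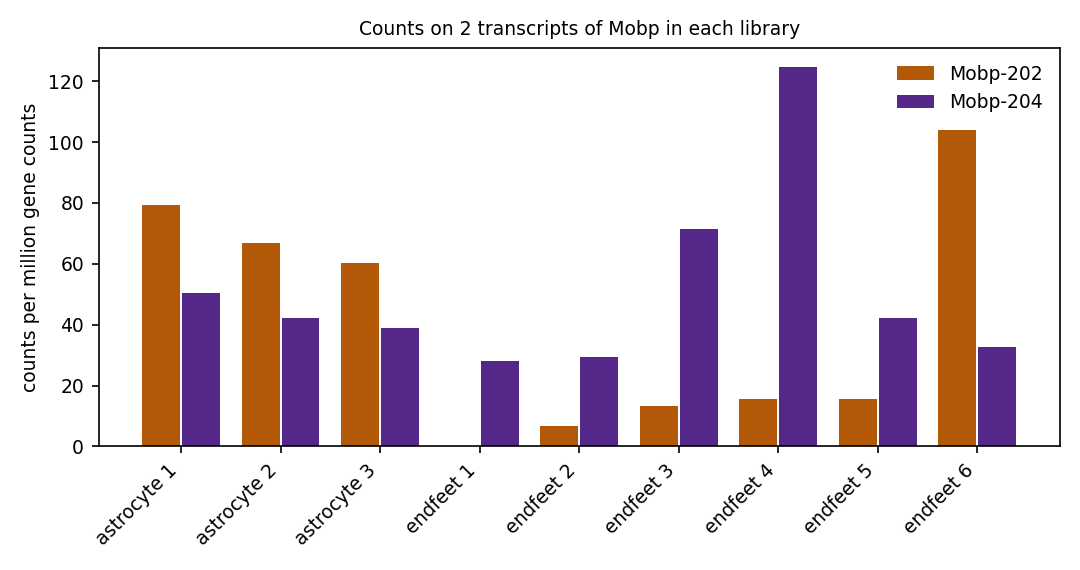
Counts on the coding transcript Mobp-202 (orange) and on Mobp-204 (purple) in CPM, in each of the 9 libraries. Mobp-202 is the higher of the pair in all 3 whole astrocyte libraries and in endfeet library 6, and Mobp-204 is the higher in endfeet libraries 1 to 5.

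**Figure D3:**
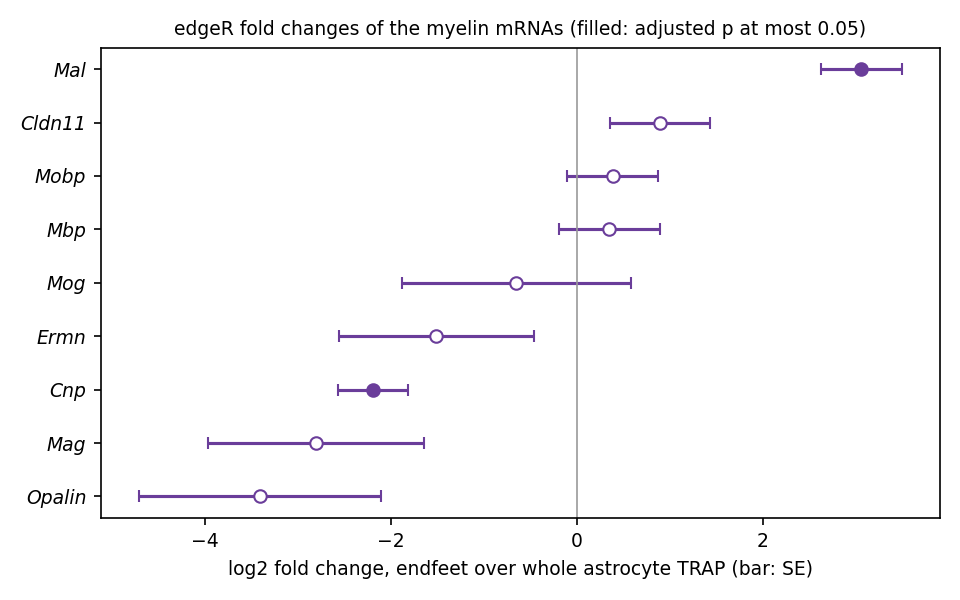
The log2 fold change of each myelin mRNA, endfeet over whole astrocyte TRAP, with its standard error as a bar, from edgeR over 3 and 6 libraries. Filled points passed the test (adjusted p at most 0.05). Mal (3.06) and Cnp (-2.19) are filled and have the shortest bars, and Opalin, Mog, Mag and Ermn have standard errors above 1 on the log2 scale.

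The summed myelin level was made up differently in the 2 groups. The 9 mRNAs summed to 593 to 632 CPM in whole astrocyte TRAP and 367 to 584 CPM in endfeet TRAP, so that every endfeet library was below every whole astrocyte library. Cnp made up 63.6% to 69.3% of the sum in whole astrocyte TRAP and 9.51% to 29.6% in endfeet TRAP. Mal made up 4.05% to 5.10% in whole astrocyte TRAP and 19.4% to 61.7% in endfeet TRAP. Without Mal, the sum was 564 to 607 CPM in whole astrocyte TRAP and 157 to 322 CPM in endfeet TRAP. All 9 mRNAs had at least 10 counts in each whole astrocyte library, whereas 5 to 8 of them had that many in an endfeet library. A fixed count is a stricter threshold in the endfeet libraries, whose totals were smaller, so this contrast does not by itself show lower levels.

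Endfeet libraries differed in which myelin mRNAs they held. On the log2(CPM + 1) scale, library 1 was below the whole astrocyte mean for 8 of the 9 mRNAs, Mal being the exception, and library 5 was below it for 7. Libraries 3, 4 and 6 were each above the mean for 4 mRNAs and below it for 5. Library 6 had the highest Mbp and Ermn and the lowest Cnp and Mal, but it rests on 2319495 counts in all and on 852 counts for the 9 mRNAs. Over the 6 endfeet libraries, the 36 pairs of members had a median Pearson correlation of 0.11 on this scale, 23 positive and 13 negative, from -0.90 (Cnp with Ermn) to 0.79 (Cnp with Mal). Cldn11 with Ermn (0.78) and Mag with Mobp (0.71) were the next highest. These correlations are over 6 points that share the scaling of CPM, and without endfeet library 1 the median was -0.03.

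**Figure D4:**
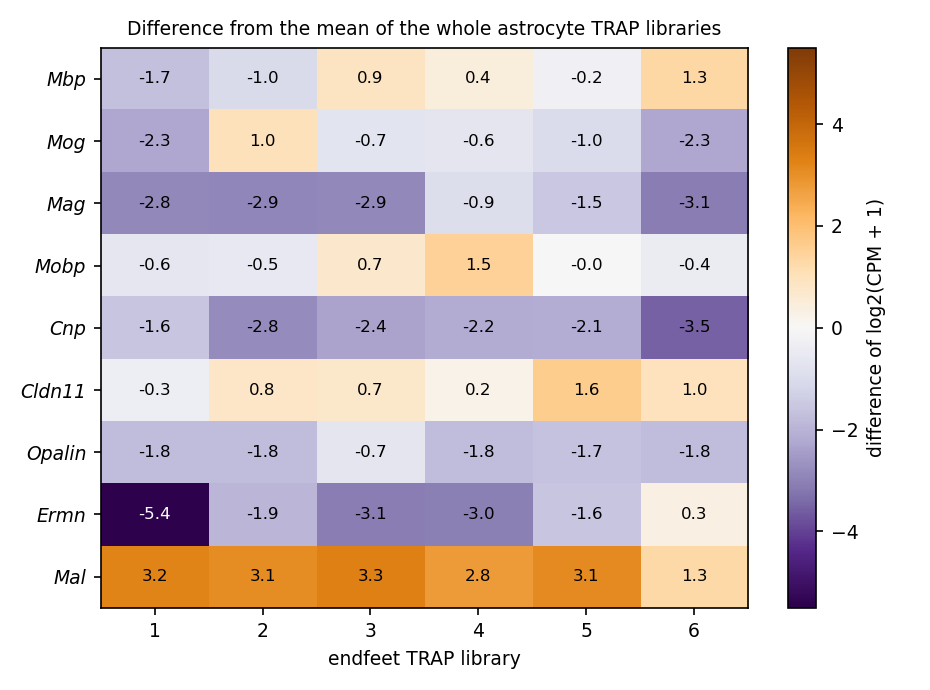
Difference of log2(CPM + 1) of each myelin mRNA (rows) in each endfeet TRAP library (columns) from the mean of the 3 whole astrocyte TRAP libraries, orange for higher and purple for lower. Mal is orange in all 6 columns, Mag, Cnp and Opalin are purple in all 6, and the other 5 rows hold both colours.

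Levels can be compared between genes only per length. As CPM per kilobase of transcript, the order of medians in whole astrocyte TRAP was Cnp (148), Mbp (23.7), Mobp (16.1), Ermn (11.4), Mal (10.6), Cldn11 (7.02), Mag (3.22), Mog (2.31) and Opalin (1.27). Only 1 of the 8 neighbouring pairs in this order, Ermn and Mal, had overlapping ranges over the 3 libraries. In endfeet TRAP the order of medians was Mal (91.6), Cnp (29.6), Mbp (26.2), Mobp (14.4), Cldn11 (12.1), Ermn (2.00), Mog (0.944), Mag (0.0628) and Opalin (0), and the ranges of all 8 neighbouring pairs overlapped. Mal thus had rank 5 per kilobase in whole astrocyte TRAP and rank 1 in endfeet TRAP. For Mbp the length is that of Mbp-201 (2492 bases), since 11 of its 16 transcripts had nearly the same counts. The place of Mobp and its overlaps are those of Mobp-204 (2609 bases, endfeet median 37.5 CPM). The coding Mobp-202 (3286 bases, endfeet median 14.5 CPM) was not ranked.

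Other genes of myelin were also split between both directions. Of 29 further myelin genes, 27 were tested, 4 rose and 8 fell, and their median log2 fold change was -0.84. The shares over all genes tested were 20.7% higher and 13.9% lower. The highest were Pllp, a proteolipid of the MAL family (3.24, edgeR adjusted p = 0.00464), Ndrg1 (3.07) and Tspan2 (2.16), and the lowest were Hapln2, a link protein of the node (-4.10), Car2, a carbonic anhydrase (-3.26), and Sirt2, a deacetylase (-2.31). Pllp was at 3.41 to 4.36 CPM in whole astrocyte TRAP and at 5.53 to 61.2 CPM in endfeet TRAP, and all 6 endfeet libraries were above. The 29 genes summed to 4829.99 to 5026 CPM in whole astrocyte TRAP and 1201 to 1813 CPM in endfeet TRAP.

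Of the 10 transcription factors of oligodendrocytes, 4 fell and 6 did not pass the test, with a median log2 fold change of -2.17. For these and the next lists, the shares over all genes tested are again 20.7% higher and 13.9% lower. The lowest were Sox8 (-4.86), Olig2, which specifies the lineage (-4.31), and Nkx2-2 (-3.72), and Olig1 also fell (-2.74). They summed to 520.0 to 531 CPM in whole astrocyte TRAP and 49.6 to 105 CPM in endfeet TRAP. Most of the whole astrocyte sum was Sox8 (mean 208 CPM) and Olig1 (mean 193 CPM). The 6 factors that did not pass had log2 fold changes from -3.27 to 1.57. Which cells held the mRNAs of these 10 genes was not tested. Of the 8 genes that carry or hold myelin mRNAs, 3 fell, namely Qk, an RNA-binding protein of the myelin mRNAs (-2.40), Fyn, a kinase of the Mbp translation switch (-1.50), and Hnrnpa2b1, which binds the transport signal of the Mbp mRNA (-0.92), and the median was -0.54. Of the 13 genes of oligodendrocyte precursors, 12 were found and 11 tested. In all, 4 of them rose, among them Cspg4 (5.40), Pdgfra (4.06) and Bmp4 (3.61), and Sox6 fell (-2.16), with a median of 1.42. Cspg4 is also made by mural cells and Pdgfra by fibroblasts, and all 10 mural cell genes and 11 of the 12 genes of arachnoid cells and fibroblasts rose. Of the 8 Schwann cell genes, 5 were tested, Drp2 fell (-1.40), and the median was 0.50.

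**Figure D5:**
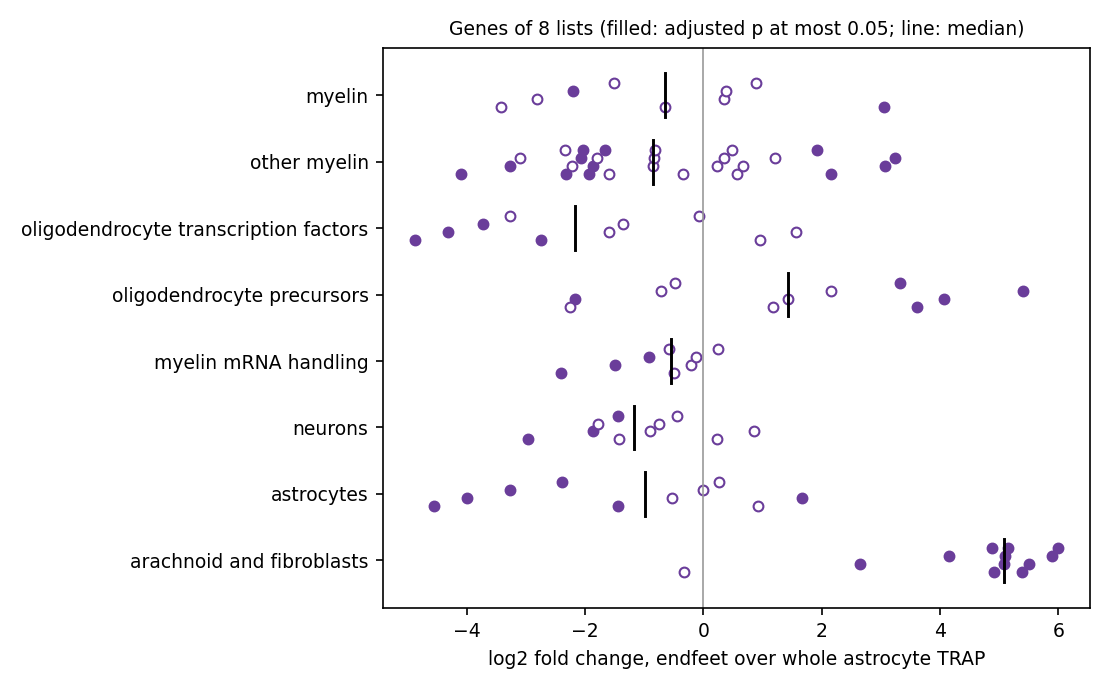
The log2 fold change, endfeet over whole astrocyte TRAP, of each tested gene of 8 lists (1 point a gene), filled where it passed edgeR's test (adjusted p at most 0.05), with the list's median as a line. The 9 myelin genes spread from -3.41 to 3.06 as the other myelin genes do from -4.10 to 3.24, and the arachnoid and fibroblast genes lie mostly above 4.

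RNA of cells around vessels was high in endfeet TRAP, where 20.7% of all genes tested rose and 13.9% fell. All 10 endothelial genes rose (median log2 fold change 9.55), as did all 10 mural genes (6.62), 7 of the 10 microglial and macrophage genes (3.43), 7 of the 8 choroid plexus genes (5.27) and 4 of the 8 ependymal genes (1.58). Of 10 astrocyte genes, Aqp4, the water channel of endfeet, rose (1.67), 5 fell, among them Hes5 (-4.54), Aldoc (-4.00) and Sox9 (-3.27), and the median was -0.98. Of 10 neuronal genes, 3 fell (Tubb3, Snap25 and Nefl), 7 did not pass the test, and the median was -1.16. The endothelial genes summed to 56.1 to 64.9 CPM in whole astrocyte TRAP and 3581 to 6814 CPM in endfeet TRAP, and the neuronal genes to 4056 to 4610.4 and 1215 to 1992 CPM. The astrocyte genes summed to 23931 to 25799 CPM in whole astrocyte TRAP and 11099.8 to 30052 CPM in endfeet TRAP, and of the 10 only Hes5 was at 0 in an endfeet library (library 6). The part of any of these cell types in the myelin values was not tested.

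The genes most like the myelin members over the endfeet libraries were found among 8640 genes with at least 10 counts in each of them. The profile was the mean of log2(CPM + 1) over the 7 members with at least 10 counts in at least 3 endfeet libraries, and it was lowest in library 1 (3.98) and between 4.88 and 5.17 in the others. Vps41, Igdcc4, Ncdn, Zwint, Ormdl2, Edn1, Gne, Mgat2, Cntd1 and Ube2l3 had the highest Pearson correlations with it, 0.993 to 0.999 over 6 libraries. None of them is a gene of the lists above, and such values over 6 points describe these libraries only.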

How the data were processed

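Each of the 9 deposited tables holds, for 1 library, raw read counts per Ensembl transcript. Per the study's methods and the submitters' processing notes, the authors used bcl2fastq 1.8.4, the Eoulsan pipeline, Bowtie on mm10 and HTSeq 0.5.3 with Ensembl annotation, and the deposited counts were neither normalized nor filtered. Libraries were made with the NuGEN Ovation system and strand was not used here, so overlapping genes were listed. A read was counted on every transcript it overlapped.

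Transcripts (75466) were matched to GENCODE M21 of the same build (73164 found, 2302 left out), and for each of 22092 genes only the transcript with the largest sum of CPM was kept. Groups were compared over 3 and 6 libraries with edgeR 4.0.16 (TMM, filterByExpr, glmQLFit, glmQLFTest; R 4.3.3), with Benjamini-Hochberg adjustment over 14427 genes and a threshold of 0.05, and the standard error was the absolute log2 fold change over the square root of F. The scripts were tested on simulated data. Alternatives used DESeq2 1.42.0, limma 3.58.1 and other filters, transcripts and libraries. No 2 libraries held the same counts within sampling noise. P-values measure the spread between these samples, which may be technical.

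Members, lists and motifs were chosen with earlier results of these data known. Named genes are the 9 members, at most 3 called genes of each list in each direction with the largest absolute fold change, and the 10 genes most correlated with the members. Olig1 and genes that overlap a member were named outside this rule, after their values were seen. Some genes of the lists are not reported here.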

Additional observations from a re-analysis of the deposited data

Results flagged for a closer look

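Within the 6 endfeet TRAP libraries, 1 library stood apart from the other 5 by Dixon's gap-over-range criterion for 3 of the 9 mRNAs. The criterion's rate of about 1 chance flag in 20 groups is for normally distributed values. That rate cannot be read here, since Opalin had a count of 0 in 4 of these libraries, Mog in 2 and Ermn in 1. Mog was at 8.55 CPM in endfeet library 2, where the next highest library was at 2.05 CPM. Opalin was at 1.13 CPM in endfeet library 3, where the next was at 0.0743 CPM. Ermn was at 53.0 CPM in endfeet library 6, where the next was at 13.6 CPM. The 3 values are in 3 different libraries, 2 of them lie above the range of the whole astrocyte libraries (Mog and Ermn), and what set them apart was not tested.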

How the results depend on the processing

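Cnp was called lower and Mal higher in each of the 22 fits made for them, including the added one on endfeet libraries 2 to 5, with log2 fold changes of -2.55 to -2.04 and 2.56 to 3.34. Mal was the only myelin gene called higher in all of them. The number of myelin genes called lower, 1 (Cnp) as reported, was 2 with DESeq2's Wald test (also Mag), 4 with limma voom and a weight for each group (also Mag, Opalin and Ermn), 2 with the later number series only and 2 with the series as a covariate (also Opalin in both), and 2 with endfeet libraries 2 to 5 only (also Ermn; added after the data were seen). Calls of lower genes over all genes moved as well, from 2006 to 2440 with DESeq2, 4485 with voom, 2819 with the later series, 1670 with the covariate, 3369 with endfeet libraries 2 to 5 and 1958 with the replicate block. Leaving out 1 library in turn gave 1 to 2 myelin genes called lower. Replicate numbers are shared by the groups, but same-numbered libraries did not deviate together (mean correlation 0.0124 over 3 pairs, against -0.00232 over 6 other pairs). With a replicate block, which drops the unpaired endfeet libraries from the contrast, 3 were called lower (Mag, Cnp and Ermn), and Mbp turned to -0.57 and Mobp to -0.0788 on the log2 scale. Mobp also turned to -0.78 with counts summed over transcripts, to -1.34 with Mobp-202 (added) and to -0.18 without endfeet library 4, and Mbp to -0.0287 without library 6. With 1 library left out, Mbp ranged from -0.0287 to 0.59 and Mobp from -0.18 to 0.58. The cause of these turns was not tested. The median correlation of member pairs ranged from -0.0283 (without endfeet library 1) to 0.239 (without library 2) over the libraries left out. Of 194 fits of single members in all, 6 changed sign, 12 gained a call and 0 lost one. The median of all genes moved by more than 0.1 (log2) with voom (-0.39), the block (-0.31), the later series (-0.24), each transcript as a feature (0.11), and without endfeet library 4 (-0.15) or 5 (-0.13). Requiring 10 counts in every library left Mog, Mag, Opalin and Ermn untested, and thinning to the smallest library left Opalin untested. Thinning left Mog at -1.0, Mag at -2.66 and Ermn at -1.30.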
